A study of Homo sapiens with 14 samples.

Results

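Runs of H3K27ac peaks that lie close together were examined in LX-2, a line of immortalised hepatic stellate cells of human origin. H3K27ac is acetylation of lysine 27 of histone H3 and marks active enhancers and promoters. Dense runs of such peaks are often called stretch or super-enhancers and are known to lie near genes that define a cell type or its state. Hepatic stellate cells store vitamin A in the healthy liver, and after injury turn into contractile myofibroblasts that lay down collagen. JUN is a subunit of AP-1, a dimeric transcription factor that answers growth, stress and mechanical signals, and p-JUN is its phosphorylated, active form.

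The clusters were chosen by the H3K27ac peak positions of cells on the soft matrix alone. The 18238 soft peaks on the autosomes, X and Y were joined wherever the gap between neighbours was at most 12.5 kb. This gave 14416 stitched units, of which the 231 with 4 or more peaks were taken as clusters. They held 1053 soft peaks, 5.77% of the soft list. Because the soft list chose them, their soft H3K27ac values, and stiff numbers set against them, are a description with no test. The p-JUN, H3K4me3, H3K27me3 and stiff H3K27ac lists had no part in the choice.

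CUT&Tag, in which an antibody brings a transposase to its target so that the DNA around it can be sequenced, was done on cells kept for 2 days on either a soft or a stiff matrix. The labels name no genotype, drug or other treatment, and every group was the same cell line on its matrix, with 10000 cells per assay in the labels and more in the study's methods. The soft group was titled 2K in each mark. The stiff group was titled 40K for the histone marks, but TCP for p-JUN, an abbreviation the study uses for culture plastic, so stiff p-JUN and stiff H3K27ac may come from different surfaces. Each matrix had 2 libraries of p-JUN, of H3K4me3 and of H3K27me3, but only 1 merged list of H3K27ac, which has no replicate error. The study's methods speak of biological replicates for its sequencing, but no label ties a library to a culture of its own, so p-values measure only the spread between libraries, which may be technical. With 2 libraries against 2, an exact permutation test cannot give a p under 0.33.

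The lists held 48163 to 54168 p-JUN, 18096 to 18857 H3K4me3, 6974 to 19843 H3K27me3 and 13322 (stiff) to 18238 (soft) H3K27ac peaks. Depth is given as the sequenced fragments at a peak's summit, worked out from the deposited fold and p-value. The median summit held 27 fragments in the soft and 26 in the stiff H3K27ac list, 60 to 64 in p-JUN and 120 to 207 in H3K4me3. As a check of the cell type, 5 of 10 stellate and mesenchymal markers had H3K27ac within 1 kb of a start site in each list, among them ACTA2, TAGLN, VIM and SPARC. COL1A2, LUM and DCN had neither H3K27ac nor H3K4me3 there. Of 10 hepatocyte markers 0 had either mark in any list. H3K27ac was at 0 of 7 endothelial markers (PECAM1 had no start site in the annotation) and 0 of 4 cholangiocyte markers, though KDR, EPCAM and SOX9 had H3K4me3 in all 4 libraries. Of 7 leukocyte markers CD68 and CD14 had soft H3K27ac. A cluster of 5 soft and 5 stiff peaks did span KRT15 and the cholangiocyte marker KRT19 (chromosome 17, 39678045 to 39705364), with none of these peaks within 1 kb of a KRT19 start site. CD68 and SPARC were linked to clusters too.

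The DNA under the clusters is shown first at p-JUN summits that carry the AP-1 motif, since these sites recur in the results that follow. The motif is TGACTCA, or TGAGTCA on the other strand, and is in capitals. The cluster with the most soft peaks, in TRIO, held the following site on chromosome 5 from 14165654 to 14165894 (GRCh37, plus strand), 241 bases with 1 motif.
TRIO site: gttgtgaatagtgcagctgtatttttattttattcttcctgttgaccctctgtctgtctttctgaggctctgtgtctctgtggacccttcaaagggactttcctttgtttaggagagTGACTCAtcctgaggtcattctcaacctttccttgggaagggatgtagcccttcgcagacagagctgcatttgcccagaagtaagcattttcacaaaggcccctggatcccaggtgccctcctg
p-JUN reached 904 and 777 fragments at its summit on soft, against 705 and 799 on stiff. H3K27ac held 85 fragments there on soft and 52 on stiff.

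Shorter sites from other clusters are set side by side to show the motif in different surroundings. Each is 31 bases on the plus strand of GRCh37 and was the motif site at the strongest such p-JUN summit of its cluster in soft replicate 1.
PRKCH cluster, chr14:62029737-62029767: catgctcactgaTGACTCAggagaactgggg
UQCC1 intron, chr20:33893728-33893758: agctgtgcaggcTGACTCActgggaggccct
FMN1 intron, chr15:33148270-33148300: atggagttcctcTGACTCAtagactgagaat
near PRSS23, chr11:86454630-86454660: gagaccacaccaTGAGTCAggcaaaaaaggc
ACTN4 intron, chr19:39174493-39174523: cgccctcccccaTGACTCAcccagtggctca
COL4A2 intron, chr13:111000225-111000255: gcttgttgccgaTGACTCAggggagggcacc
LMNA promoter, chr1:156096260-156096290: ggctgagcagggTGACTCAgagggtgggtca
The p-JUN fragments at the UQCC1 site were 1381 and 1221 on soft, against 1114 and 1308 on stiff, and those at the FMN1 site 131 and 129 on soft, against 141 and 161 on stiff. The sites therefore differed far more among themselves than any of them did between matrices. At the PRKCH and FMN1 sites soft H3K27ac held 73 and 40 fragments, and the stiff list had no peak.

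Of the 231 clusters, 154 had 4 soft peaks, 45 had 5, 17 had 6, 12 had 7, 2 had 8 and 1 had 10. The span ran from 4.18 to 51.5 kb with a median of 23.1 kb, and neighbouring peaks in a cluster lay a median of 6.55 kb apart. The strongest peak held a median of 32.6% of a cluster's summed summit fragments. The clusters covered 5.61 Mb, or 0.196% of the sequenced bases of the genome. Chromosome 1 had 26 of them, while chromosome 20 had 12.4% of its soft peaks in clusters, the highest share of any chromosome. No start site of a protein-coding gene lay inside 117 clusters (50.6%). Named protein-coding genes overlapped 176 clusters, and 55 lay outside such genes.

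Around the threshold the values changed little. Peaks in the 451 units of 3, just outside it, were kept in the stiff list in 64.6% of cases, and those in the 154 units of 4 in 67.2%. Their local background was 5.37 and 6.57 fragments, against 2.45 for single peaks. The median summit held 36 and 41 fragments, against 24.

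**Figure D1:**
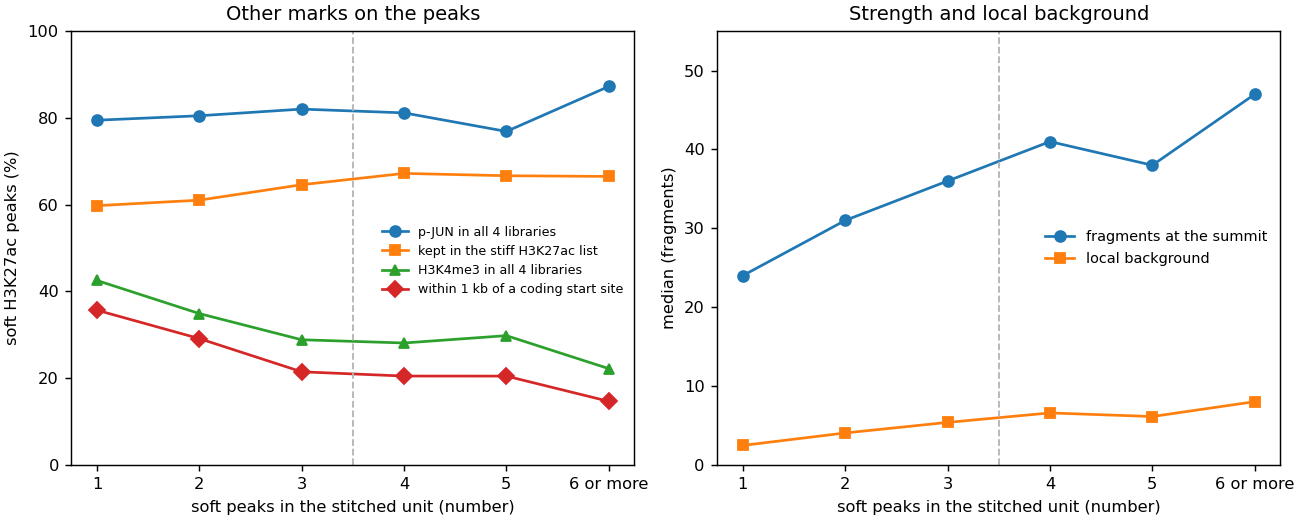
The x axis of both panels is the number of soft H3K27ac peaks in a stitched unit, and the dashed line is the threshold between 3 and 4. The left panel gives the percentage of those peaks that carried each mark or lay near a start site, and the right panel the median summit fragments and local background. The promoter share falls from 35.6% of single peaks to 14.6% in units of 6 or more, while the local background rises from 2.45 fragments at single peaks to 6.57 in units of 4.

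Inside the clusters the stiff list had 710 H3K27ac peaks against 1053 soft peaks, which is -0.57 as a log2 ratio. The whole lists, of 13322 and 18238 peaks, stood at -0.45. Lists cut to equal length and stitched anew gave 127 clusters and a ratio of -0.37, and the part of list length was not tested. The choice on soft peaks favours this direction, and the ratio was 0.16 for clusters stitched from the stiff list. A cluster held a median of 3 stiff peaks, and 190 clusters had fewer stiff than soft peaks, 38 equal numbers and 3 more. The stiff peaks in clusters mostly fell on soft peaks, as 18 of 710 (2.54%) lay on none, compared with 17.4% of the stiff peaks elsewhere. The clusters were chosen for their many soft peaks, which favours this contrast, so it is a description only. Stitched by the same steps, the stiff list gave 97 clusters. Of these 65 (67.0%) overlapped a soft cluster, which was 28.1% of the 231.

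**Figure D2:**
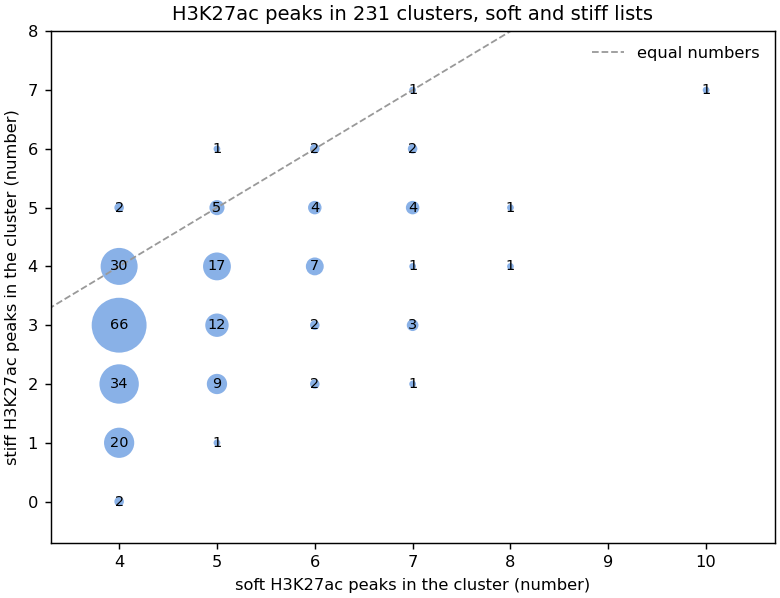
Each circle stands for the clusters with a given number of soft (x axis) and stiff (y axis) H3K27ac peaks, with its area and the printed number giving how many. The dashed line marks equal numbers, and 3 of the 231 clusters lie above it and 38 on it.

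Soft peaks were kept, meaning that they shared at least 1 bp with a stiff peak, in 67.0% of 1053 cases in clusters (95% Wilson interval 64.1% to 69.7%). Elsewhere 60.5% of 17185 were kept, and 60.8% over the whole soft list. The difference of 6.50 points (95% interval 3.51 to 9.37, counting error only) has no replicate check, and was 3.67 points with lists of equal length. Peaks in clusters also held more fragments, with a median of 41 against 26. By fragments 58.4% of them were in the highest of 4 like-sized groups of the soft list, with 38 or more, against 24.1% of other peaks. The median fold over the local background was lower in clusters, at 5.62 against 6.89 for other peaks. How clusters compared among peaks of like strength depended on the measure of strength. By fragments the share kept was lower in clusters. With 20 to 26 fragments at the summit 39.0% were kept in clusters (95% Wilson interval 30.9% to 47.9%) and 52.4% elsewhere (51.0% to 53.9%). With 27 to 37 fragments the shares were 56.3% (50.2% to 62.3%) and 70.2% (68.8% to 71.6%), and with 38 or more 81.3% (78.0% to 84.2%) and 89.0% (88.1% to 90.0%). With 8 to 19 fragments the intervals overlapped, at 23.8% of 63 peaks in clusters (15.0% to 35.6%) and 31.8% elsewhere (30.4% to 33.2%). The median local background was 6.75 fragments for peaks in clusters and 2.90 for other peaks, and its part in these shares was not tested. The mean difference over the 4 groups by fragments was -10.8 points. By −log10 q, which takes that background into account, it was -0.69 points, with clusters higher in 2 of the 4 groups. By fold over that background it was 11.4 points, with clusters higher in each group, from 61.1% against 51.1% in the lowest to 83.9% against 74.6% in the highest.

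**Figure D3:**
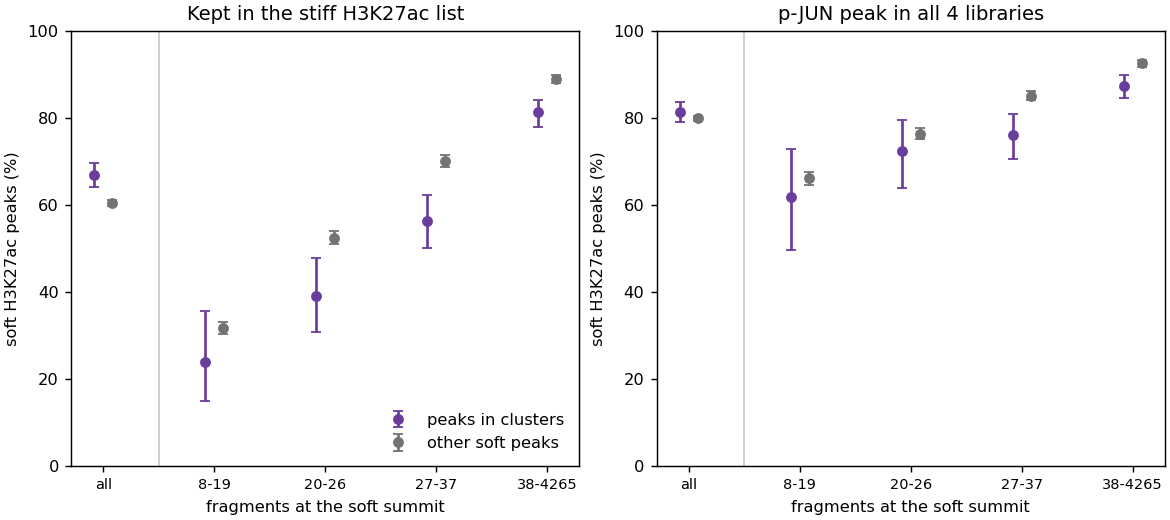
The y axes give the percentage of soft H3K27ac peaks kept in the stiff list (left) or bearing p-JUN in all 4 libraries (right), for all peaks and in 4 groups of the soft list by summit fragments. Bars are 95% Wilson intervals. Peaks in clusters lie above other peaks over all peaks (67.0% and 60.5% kept) and below them in each of the 4 groups.

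Within a cluster it was mostly the weaker peaks that were missing on stiff. The strongest soft peak was kept in 212 of 231 clusters (91.8%) and the weakest in 99 (42.9%). Kept peaks had a median of 49 soft fragments and the 348 lost peaks 32. In 40 clusters every soft peak was kept, in 189 some were and in 2 none was. At kept peaks the stiff summit was lower, with a median log2 ratio of stiff to soft fragments of -0.26 over 705 peaks in clusters. Over 10389 other kept peaks it was -0.21, so this drop was not particular to the clusters.

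The cluster with the most soft peaks covered 48.1 kb of TRIO (chromosome 5, 14142887 to 14191022), which encodes an exchange factor that activates small GTPases that act on the actin cytoskeleton. It had 10 soft and 7 stiff H3K27ac peaks. Their summits summed to 834 fragments on soft and 469 on stiff, and each of the 10 soft peaks bore p-JUN in all 4 libraries. The 3 peaks lost on stiff had 60, 56 and 75 fragments on soft, and the kept peaks 69 to 144. H3K4me3 was called 7 and 7 times on soft, against 7 and 6 times on stiff, at the start sites and far into the gene.

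The next clusters had 8 soft peaks each. A cluster on chromosome 14 (61992082 to 62031682) ran over the end of PRKCH, the gene of protein kinase C eta, into introns of an annotated read-through gene, ENSG00000258989. In it 5 peaks were called on stiff, and the peak with the most fragments on soft (73) was among those lost. The other 8-peak cluster (chromosome 17, 43201288 to 43250507) reached from PLCD3, a phospholipase C gene, over ACBD4 to HEXIM1 and HEXIM2, whose products restrain the elongation factor P-TEFb. It kept 4 peaks on stiff and, unlike PRKCH, had 5 or 6 H3K4me3 peaks in each library.

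The longest clusters of 7 peaks lay in and around genes of varied roles. In ADAMTS12, a secreted metalloproteinase gene, 5 of 7 were called on stiff. In MED15, which encodes a subunit of the Mediator coactivator, 3 of 7 were, and at TADA2A and DUSP14, genes of a histone acetyltransferase adaptor and a phosphatase, 3 of 7. In UQCC1, which assists the assembly of respiratory complex III, 5 of 7 were. At chromosome 20, 49943842 to 49983448, 20045 bp from NFATC2, a factor driven by calcineurin, 6 of 7 were called on stiff. A cluster between COPS8 and COL6A3 (chromosome 2, 238092956 to 238144459) lay 83838 and 88186 bp from them and had 4 stiff peaks. Another on chromosome 10 (44338693 to 44374134), 194363 bp from ZNF32, the nearest coding gene, had 3.

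A further cluster lay over MALAT1, an abundant nuclear non-coding RNA (chromosome 11, 65238953 to 65275572), and overlapped no protein-coding gene. All 7 of its soft peaks were kept, and 7 stiff peaks were called. Its soft summits held 38 to 92 fragments and the stiff ones 29 to 84. H3K4me3 was called in all 4 libraries, 3 and 5 times on soft, against 5 and 5 times on stiff.

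**Figure D4:**
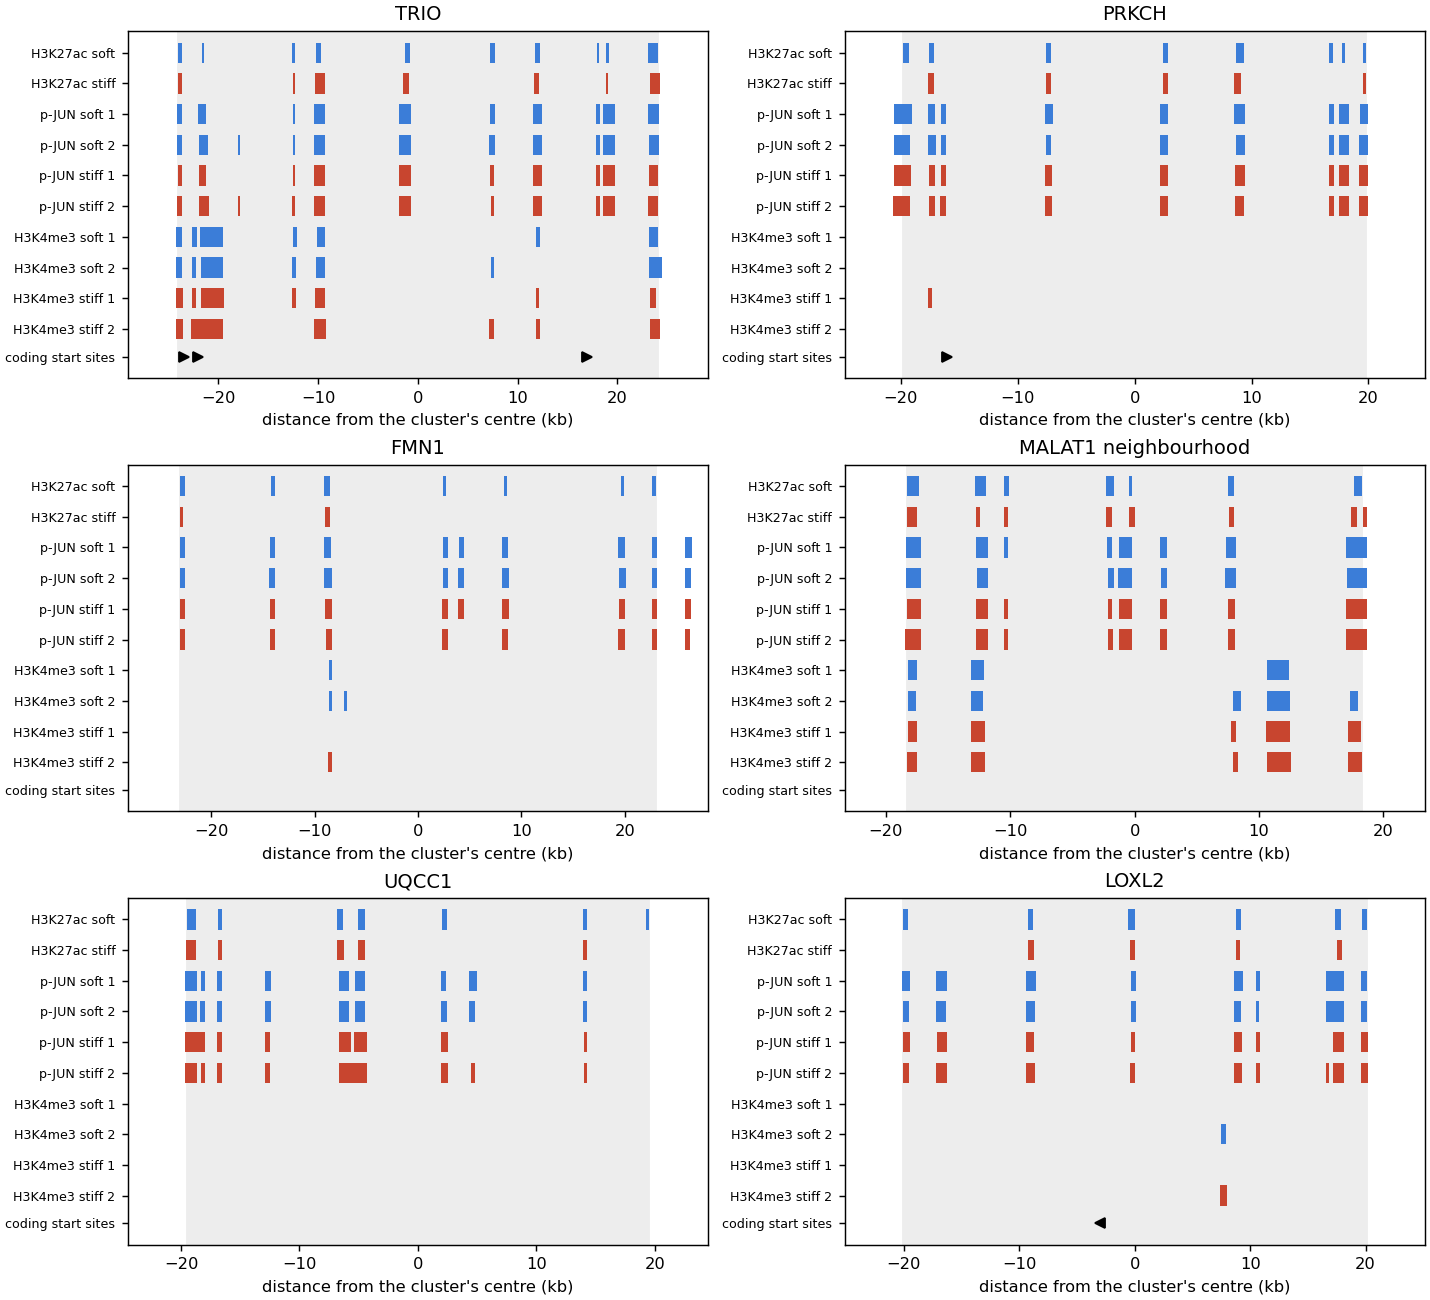
Peaks of H3K27ac, p-JUN and H3K4me3 are drawn as boxes to scale in 6 clusters, with distance from the cluster's centre in kb on the x axis, 1 row per list (soft blue, stiff red), the cluster shaded and coding start sites as arrowheads. The stiff H3K27ac row has fewer boxes than the soft row in TRIO (7 and 10) and FMN1 (2 and 7), while most p-JUN boxes recur in each of the 4 libraries.

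Among the clusters of 6 or more peaks, that in FMN1 kept the lowest share on stiff. FMN1 encodes a formin, which nucleates actin filaments, and the cluster lies on chromosome 15 from 33116788 to 33162879. Of its 7 soft peaks 2 were kept, those with 38 and 47 soft fragments, while peaks with 48 and 50 were lost. The p-JUN libraries had 8 and 8 peaks there on soft, against 8 and 7 on stiff. Clusters near MLPH, a melanosome transport gene (chromosome 2, 238368244 to 238392329), and in DST, a gene of a cytoskeletal linker (chromosome 6, 56707564 to 56728589), each kept 2 of 6. The clusters without any stiff peak had 4 soft peaks each and lay in B4GALT1, a galactosyltransferase gene, and 60442 bp from KCNQ5, a potassium channel gene. Their soft summits summed to 111 and 103 fragments, against a median of 197 over the clusters, and p-JUN was called 3 times per library at B4GALT1 and 2 times per library near KCNQ5.

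In the other direction, 3 clusters had more stiff than soft peaks. SH3PXD2A, which encodes a scaffold of podosomes, the matrix-degrading adhesions (chromosome 10, 105419828 to 105438374), had 5 soft and 6 stiff peaks. CACNA1C, the gene of an L-type calcium channel pore (chromosome 12, 2353144 to 2378320), had 4 and 5, and its summed fragments were 234 on soft and 332 on stiff. All of these stiff peaks lay on soft peaks. The higher number thus came from a soft peak with repeated stiff calls, each of which entered the stiff sum. At CPA5, a carboxypeptidase gene, there were 4 and 5 peaks and 233 and 272 fragments. A gene-rich cluster from MXRA7 over JMJD6 and METTL23 to SRSF2, a splicing factor gene, and MFSD11 (chromosome 17, 74684426 to 74734165) had 6 soft and 6 stiff peaks, with 249 and 175 fragments and 6 H3K4me3 peaks in each library. The receptor gene GPRC5A (chromosome 12, 13024918 to 13054761) had 6 soft and 6 stiff peaks, with 355 and 317 fragments.

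The clusters were then examined for p-JUN, which was called within 230 of the 231 in all 4 libraries. The exception was a cluster in KIRREL1, with 1 and 0 peaks on soft, against 0 and 2 on stiff. Over the whole soft list 80.0% of H3K27ac peaks bore p-JUN in all 4 libraries. A cluster holds at least 4 such peaks, so a count near the total says little about the clusters. The clusters held 990 and 962 p-JUN peaks on soft, against 947 and 1007 on stiff. Per cluster this was 4.23 ± 0.0857 (SD, n = 2) on soft, against 4.23 ± 0.184 (SD, n = 2) on stiff, a log2 ratio below 0.01 in size (two-sided exact permutation test, p = 1.0). As a share of each list it was 1.96% ± 0.0574 (SD, n = 2) on soft, against 1.90% ± 0.0610 (SD, n = 2) on stiff, or -0.04 as a log2 ratio (two-sided exact permutation test, p = 0.667). These differences were within the spread between libraries of 1 matrix.

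In single clusters too the libraries of different matrices differed about as much as those of 1 matrix. Per cluster, the mean absolute difference in p-JUN peaks was 0.320 between the soft libraries, 0.416 between the stiff ones, and 0.359 to 0.455 between a soft and a stiff one. All 4 libraries had the same number in 97 clusters. Both stiff libraries were above both soft ones in 10 clusters (4.33%) and below them in 15 (6.49%), where 1.08% and 1.58% of all stitched units were, most of which hold a single H3K27ac peak. In UQCC1 the numbers were 9 and 9 on soft, against 7 and 8 on stiff. In each stiff library 1 peak covered a pair that the soft libraries had as separate peaks, and in stiff replicate 1 another peak was not called. Of 1040 p-JUN regions in clusters, 887 (85.3%) were called in all 4 libraries, against 65.8% of all p-JUN regions. In both stiff and no soft library 9 (0.865%) were called, against 2.75% of all p-JUN regions, and in both soft and no stiff library 18 (1.73%), against 1.74%. In clusters 87.4% to 88.5% of p-JUN peaks lay on a soft H3K27ac peak, against 29.3% to 32.2% of all p-JUN peaks. The part of this in these shares was not tested, and they were not taken over other acetylated regions.

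**Figure D5:**
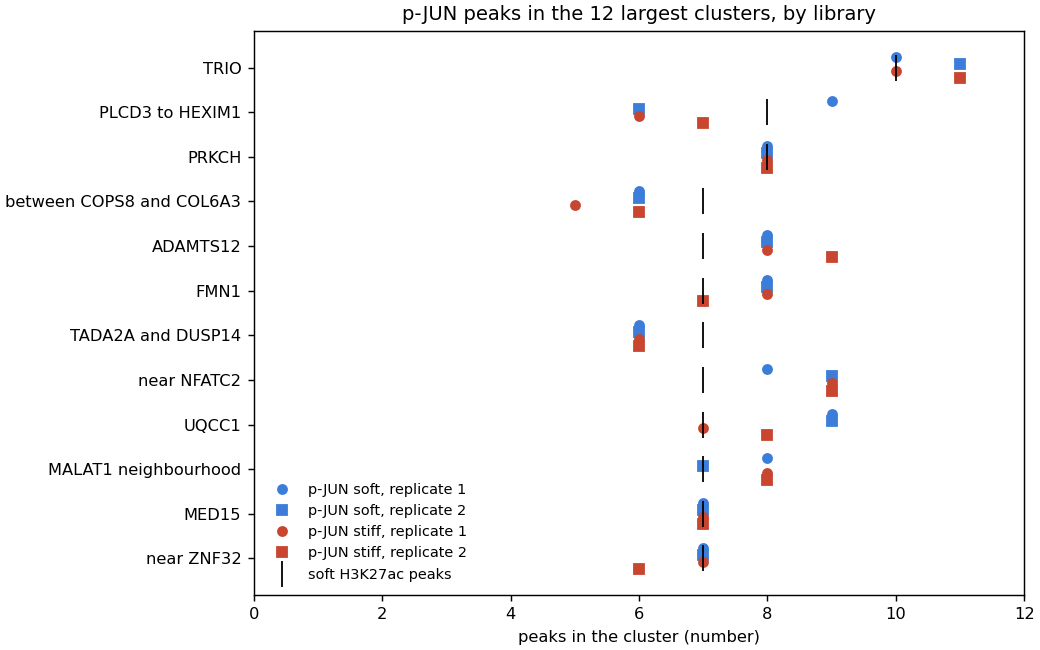
The number of p-JUN peaks is plotted for the 12 clusters with the most soft peaks (ties by span) more than 100 kb from an assembly gap, with 1 point per library (soft blue, stiff red, replicates by shape) and the number of soft H3K27ac peaks as a vertical tick. Points of both matrices coincide or differ by 1 peak in most clusters, and the widest spread, 6 to 9 peaks, is between the soft libraries at PLCD3 to HEXIM1.

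Seen from the H3K27ac peaks, 89.2% and 87.0% of cluster peaks overlapped p-JUN on soft, against 84.5% and 89.1% on stiff. The matrices differed by -1.28 points (two-sided exact permutation test, p = 0.667). Other soft peaks overlapped p-JUN in 87.9% and 86.1% on soft, against 82.8% and 88.1% on stiff. The excess in clusters was 0.845 to 1.70 points, with a mean of 1.21, and was positive in 4 of 4 libraries (two-sided exact sign-flip test, p = 0.125, the smallest 4 libraries can give). All 4 values rest on the same H3K27ac list. With peaks grouped by fragments the mean turned to -3.69 points and by −log10 q to -1.35, while by fold it was 3.62. p-JUN in all 4 libraries was on 81.5% of cluster peaks against 80.0% of the whole soft list, so its presence was not particular to the clusters. It covered every soft peak in 99 clusters.

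Its strength differed more. Strength was taken as the log2 of summit fragments over the library's median, with no local background taken out. It was taken among 40433 regions called in all 4 libraries. The median in clusters was 0.99 and 1.04 on soft, against 1.00 and 1.01 on stiff. Other acetylated regions had 0.49 and 0.53 on soft, against 0.42 and 0.46 on stiff, and regions without soft H3K27ac -0.23 and -0.22, then -0.19 and -0.22. Clusters were higher than other acetylated regions by 0.53 in the mean, in 4 of 4 libraries (two-sided exact sign-flip test, p = 0.125). The H3K27ac summits of the clusters held more fragments as well and lay in a higher local background, as given above. The part of either in this was not tested. Between matrices the strength in clusters differed by -0.01 (two-sided exact permutation test, p = 1.0).

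p-JUN was also compared between cluster peaks kept and lost on stiff. Of the 705 kept peaks 88.4% bore p-JUN in all 4 libraries and of the 348 lost peaks 67.5%. Outside clusters the shares were alike, 87.1% and 69.0%. Among lost peaks p-JUN was called at 79.3% and 76.7% on soft, against 73.3% and 78.7% on stiff. Their p-JUN strength was 0.62 and 0.69 on soft, against 0.60 and 0.60 on stiff, a difference of -0.05 (two-sided exact permutation test, p = 0.33, the smallest this design can give). PRKCH gives an example. Its peak at 62029593 to 62029861 had 73 H3K27ac fragments on soft and no stiff peak, with 963 and 885 p-JUN fragments on soft, against 833 and 939 on stiff.

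The AP-1 motif lay within 50 bp of 29.2% and 29.2% of p-JUN summits in clusters on soft, against 29.0% and 28.8% on stiff. Over whole p-JUN lists the share was 30.6% to 32.8%. Summits in clusters differed from those elsewhere by -3.79 to -1.80 points, with a mean of -2.97, lower in 4 of 4 libraries (two-sided exact sign-flip test, p = 0.125). Against p-JUN peaks on other soft H3K27ac peaks the order turned, with 28.9% to 29.7% in clusters and 24.4% to 26.3% elsewhere. Split by place, the motif was at 12.4% to 17.7% of such summits within 1 kb of a start site in clusters and 6.77% to 8.28% elsewhere. Away from start sites the shares were 32.1% to 33.1% and 32.7% to 33.9%. In each library 168 to 174 clusters (72.7% to 75.3%) held at least 1 p-JUN summit with the motif. A cluster held 4.10 to 4.36 p-JUN peaks in the mean, whose number raises this share. The same share was not taken over all stitched units. A match of letters shows a sequence, not binding.

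By density, p-JUN was highest near PRSS23, a serine protease gene (chromosome 11, 86430863 to 86454942), among clusters of 5 or more soft peaks. It had 7 p-JUN peaks in each of the 4 libraries over 24.1 kb, or 0.291 per kb, on 5 soft and 4 stiff H3K27ac peaks. The next were HK2, which encodes a hexokinase of glycolysis, and a cluster 40233 bp from MRPL14, with 0.258 and 0.253 per kb. At HK2 2 of 5 soft peaks were kept although each p-JUN library had 5 peaks. Clusters near SMURF2, whose ubiquitin ligase acts on TGF-beta signalling, in EHD1, an endocytic recycling gene, and near ERRFI1, an inhibitor of the EGF receptor, had 0.249, 0.243 and 0.241 per kb. In each of these 6 clusters the ranges of the soft and stiff libraries overlapped.

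H3K4me3, a mark of promoters, was rarer on cluster peaks than elsewhere. It was on 30.6% and 34.0% of them on soft, against 32.9% and 35.5% on stiff, against 42.7% and 43.7%, and 43.4% and 45.1%, of other soft peaks. In all 4 libraries it was on 27.3% of cluster peaks, against 38.9% of the whole soft list. Fewer cluster peaks lay within 1 kb of a coding start site, 19.3% against 32.1% of the whole list, and more lay in introns, 40.9% against 31.8% of other peaks. Away from start sites H3K4me3 in all 4 libraries was on 14.8% of cluster peaks (95% Wilson interval 12.6% to 17.4%) and 13.8% of others (13.2% to 14.4%). At start sites it was on 79.3% (73.2% to 84.3%) and 92.1% (91.4% to 92.8%). The share of the H3K4me3 lists in clusters was 1.77% ± 0.0595 (SD, n = 2) on soft, against 1.87% ± 0.0551 (SD, n = 2) on stiff, or 0.08 as a log2 ratio (two-sided exact permutation test, p = 0.33). The stiff H3K4me3 libraries were also deeper, with 151 and 207 fragments at the median summit against 120 and 141, and the part of depth in this was not tested.

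H3K27me3, the mark of Polycomb repression, was nearly missing. Soft replicate 1 had 1 peak in a cluster, on chromosome 2 (91844737 to 91855556), and the other libraries had 0. A count of 0 among the 1053 cluster peaks allows a share of up to 0.285%. Other soft H3K27ac peaks overlapped H3K27me3 in 0.448% and 0.244% on soft, against 0.367% and 0.355% on stiff, so the mark was rare on H3K27ac peaks everywhere.

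The genes inside clusters, or nearest to those outside genes, were 356 of 19535 protein-coding genes (1.82%). Of 36 matrix genes 5 were linked (13.9%), of 31 cytoskeleton and adhesion genes 4 (12.9%), of 17 TGF-beta genes 2 (11.8%) and of 23 mesenchymal factors 1 (4.35%). Of 14 AP-1 genes, 15 YAP and TEAD genes and 10 inflammation genes 0 were linked. Only the nearest gene was counted for a cluster outside genes. CCN1, of the YAP and TEAD list, lay 22449 bp from a cluster of 5 soft and 5 stiff peaks. ZNHIT6, at 19971 bp, was nearer to that cluster. A long gene has more bases that a cluster can overlap, and the part of gene length was not tested.

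Among the matrix genes, LOXL2, an enzyme gene of collagen crosslinking, had 6 soft and 4 stiff peaks and 8, 8, 8 and 9 p-JUN peaks. COL4A2, a basement membrane collagen chain (chromosome 13, 110972229 to 111000634), had 5 and 4, with 5 p-JUN peaks in each of the 4 libraries. SPARC, a collagen-binding matricellular protein gene, had 4 and 3, with 4 p-JUN peaks in each library. TIMP2, a metalloproteinase inhibitor gene, had 4 and 4. In these 4 clusters the number of p-JUN peaks differed by at most 1 between libraries.

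Of the cytoskeleton and adhesion genes, LMNA encodes the nuclear lamins A and C and had 4 soft and 3 stiff peaks (chromosome 1, 156076032 to 156100144). p-JUN was strongest at its promoter peak with 60 soft H3K27ac fragments, with 1217 and 1100 fragments on soft, against 949 and 1123 on stiff. ACTN4, an actin crosslinker gene, had 4 and 4 H3K27ac peaks. FLNA, the gene of another actin crosslinker, was overlapped by a cluster of 5 and 4 peaks that also overlapped DNASE1L1, EMD and RPL10. CAV1, a gene of the caveolar coat, was overlapped by a cluster of 4 and 3 peaks that also overlapped CAV2. Another cluster of 4 and 3 peaks lay 8681 bp from CAV1. In the second the p-JUN peaks numbered 3 and 3 on soft, against 5 and 3 on stiff. Clusters also lay 13669 bp from SMAD3, the effector of TGF-beta receptors, and 99241 bp from SMAD6, an inhibitory SMAD, with 4 soft and 2 stiff peaks each. The cluster nearest to the mesenchymal factor KLF4 lay 242717 bp from it and had 5 and 2.

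Finally, 3 clusters lay within 100 kb of an assembly gap, a run of at least 1000 undetermined bases, where collapsed repeats can add reads. They were at NOTCH2 (chromosome 1, 120601920 to 120633711), 63445 bp from a gap, at ANXA8L2 (chromosome 10), 22858 bp from one, and elsewhere on chromosome 1, 22879 bp from one. The last had NBPF16 as its nearest coding gene, 158920 bp away. The 3 clusters held 4, 4 and 4 soft and 4, 4 and 3 stiff peaks, and each of their soft peaks was kept. At NOTCH2 p-JUN was called 6 and 6 times on soft, against 5 and 5 times on stiff. Without the 3 clusters the soft and stiff peaks numbered 1041 and 699.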

How the data were processed

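CUT&Tag peak lists of H3K27ac, p-JUN, H3K4me3 and H3K27me3 were used. Per the study's methods, the authors cut adapters with Trim Galore, used Bowtie2 for alignment to hg19 (GRCh37) and Picard to flag duplicates. The names of the deposited peaks point to MACS2, which the methods give only for another assay, and its version, options and control are not given in the sources used here. The deposited values per peak are a fold (the ratio of summit to local background), the −log10 of a p-value, the −log10 of a q-value, and a score that follows from the last. Lists were not scaled to each other, read totals are unknown, and a deeper library can hold more peaks. Chromosome names and lengths fitted the reference, and peaks off the 24 chromosomes were left out.

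Summit fragments and local background were solved from the deposited fold and −log10 p, taken as a Poisson tail. A whole number was found for 100.0% of narrow peaks (relative error under 1e-04), and for at most 2.26% with the other form of the tail. MACS2 reads its local background from the same library where no control is given, so dense peaks can raise it.

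Peaks were counted in a cluster by their midpoint, and overlap meant at least 1 bp. Genes were taken from GENCODE release 44 on GRCh37, and a gap was a run of at least 1000 N. Motifs were searched within 50 bp of summits, and promoters were positions within 1 kb of a coding start site. Libraries were compared by two-sided exact permutation or sign-flip tests. Shares have 95% Wilson intervals, which cover counting error only. A log2 ratio was planned for H3K27me3, but 3 of 4 lists had 0 peaks in clusters, so a difference in percentage points was used. The steps were tested on simulated data. The scripts ran in Python 3.11.15 with pysam 0.24.0, scipy 1.17.1, pandas 2.3.3, numpy 2.4.6 and matplotlib 3.10.9.

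The clusters, the gene lists and the tests were chosen with earlier results of these data known. The clusters named were the 12 with most soft peaks (ties by span, which left out 3 of 7 peaks, of which EHD1 entered by p-JUN per kb), those near gaps, those with the lowest and highest stiff to soft numbers, the 6 with most p-JUN per kb, and those linked to listed genes. The cluster of 1 linked matrix gene is counted but not reported here. B4GALT1, KCNQ5 and KIRREL1 were added after their values were seen, as were the comparisons by strength, by kept and lost peaks and of p-JUN strength. Alternatives changed the stitching distance, the fewest peaks, the peak threshold, list length, the list stitched, promoter and gap clusters, overlap, and the libraries used.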

Additional observations from a re-analysis of the deposited data

How the results depend on the processing

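The difference in p-JUN or H3K4me3 between matrices passed no test under any alternative, which with 2 libraries per matrix could not happen. A stitching distance of 5 kb left 8 clusters and turned the difference in p-JUN between cluster and other peaks to -9.05 points and that in the AP-1 motif to 6.76 points. With 25 kb there were 656 clusters, the log2 ratio of p-JUN peaks per cluster, near 0 throughout, was -0.00661, and the H3K27me3 difference 0.0670 points. That was 0.0296 with at least 3 peaks, and 0.0305 with clusters from the stiff list or from both lists merged. Clusters from the stiff list also gave log2 ratios of 0.00689 for the p-JUN share and 0.155 for H3K27ac, 0.132 points for p-JUN on cluster peaks, and 35.4 points for retention, whose members were then chosen on stiff peaks. The H3K27ac ratio was -0.410 with both lists merged, -0.371 with lists of equal length and -0.788 counting only peaks wholly inside. Lists of equal length gave -0.00383 for p-JUN per cluster and for its share, 3.67 points for retention and 0.66 for p-JUN on cluster against other peaks, which was 4.55 with at least 6 peaks and 4.33 with clusters from the stiff list, and without promoter peaks the motif difference was 0.158 points. Chosen after seeing the data, groups by summit fragments turned retention to -10.8 points and p-JUN on cluster against other peaks to -3.69, and groups by −log10 q to -0.69 and -1.35, but groups by fold gave 11.4 and 3.62. The cause of these changes was not tested.

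Leaving out 1 library gave -0.0435 (without stiff replicate 2) to 0.0451 for p-JUN per cluster, with -0.0191 without soft replicate 2. It gave -3.56 to 0.997 points for p-JUN on cluster peaks, the last without stiff replicate 1. The p-JUN share ran from -0.0739 (without stiff replicate 1) and -0.0705 (soft 1) to -0.0106 (soft 2) and -0.0085 (stiff 2). The H3K4me3 share ran from 0.0451 (without soft replicate 1) and 0.0486 (stiff 2) to 0.114, and reached 0.188 with clusters from the stiff list. With a replicate block the p-JUN share was -0.0409, p-JUN on cluster peaks -1.28 points, p-JUN per cluster 0.000945, the H3K4me3 share 0.0792 and H3K27me3 -0.00252 points, with no call gained. Same-numbered p-JUN libraries deviated with r = -0.13 over the 231 clusters, and the crossed pairing, added after seeing the data, gave no call either. H3K27ac had no replicate, so its differences rest on 1 list per matrix, and peak lists do not show signal under their threshold.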
